A study of Mus musculus with 6 samples.

Results

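Lipid droplet coat proteins and the enzymes of lipolysis are described here from 10 genes, all found among the 12366 genes of the deposited table and matched by gene symbol. They are the perilipin genes Plin2, Plin3, Plin4 and Plin5, the CIDE genes Cideb and Cidec, the lipase gene Pnpla2 with its activator gene Abhd5 and its inhibitor gene G0s2, and the monoglyceride lipase gene Mgll. Liver RNA was sequenced from male C57BL/6 mice raised on chow to 22 weeks and then fasted for 48 h. One group was wild type (WT, 3 libraries) and the other Acss2-/- (Acss2-KO, 3 libraries). The product of Acss2 turns acetate into acetyl-CoA outside mitochondria, and the labels do not say how the allele was made. Both groups were fasted, so the response to fasting itself was not compared. The labels do not tie a library to an animal, and p-values therefore measure the spread between these libraries, part of which may be technical.

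A lipid droplet is a core of triglyceride and sterol ester under a phospholipid monolayer. Perilipins coat that surface and limit the access of lipases, and CIDE proteins sit where droplets touch and promote their growth. Stored triglyceride is taken apart in steps: ATGL, the product of Pnpla2, removes the first fatty acid, hormone-sensitive lipase can remove the next, and monoglyceride lipase releases the last with glycerol. In a fasting liver, fatty acids from adipose tissue are stored in droplets and released again for oxidation, and several coat genes are known targets of the fasting receptor PPARα.

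Promoters of 5 of the 6 genes called between the genotypes are printed to show the sequence next to them, and that of Cideb, which held 1 GC box, is not. RefSeq windows (GRCm38.p6) were found for 10 of the 10 genes, 13 windows in all, and only bases upstream of the annotated gene are printed, 5′ to 3′ on the gene's strand. Capitals mark matches, on either strand, to the nuclear receptor motif AGGTCA, the E-box CACGTG, the forkhead motif GTAAACA and the GC box GGGCGG. The Cidec window (chr6:113435761-113436010, minus strand) held none of these. The Pnpla2 window (chr7:141454938-141455187, plus strand) held 2 GC boxes, and the Plin5 stretch (chr17:56117607-56117798, minus strand) a nuclear receptor motif and a GC box. The Plin2 stretch (chr4:86670218-86670309, minus strand) held a nuclear receptor motif. The Mgll window (chr6:88724162-88724411, plus strand) held a forkhead motif and an E-box.
Cidec: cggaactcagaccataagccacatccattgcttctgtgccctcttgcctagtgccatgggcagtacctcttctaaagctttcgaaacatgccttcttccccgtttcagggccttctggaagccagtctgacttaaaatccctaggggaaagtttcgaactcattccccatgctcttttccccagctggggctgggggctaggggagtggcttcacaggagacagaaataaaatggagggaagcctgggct
Pnpla2: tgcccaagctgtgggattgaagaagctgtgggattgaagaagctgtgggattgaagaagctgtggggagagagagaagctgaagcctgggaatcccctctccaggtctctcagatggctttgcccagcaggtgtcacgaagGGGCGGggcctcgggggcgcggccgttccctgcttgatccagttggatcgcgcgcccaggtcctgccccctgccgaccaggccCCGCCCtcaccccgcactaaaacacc
Plin5: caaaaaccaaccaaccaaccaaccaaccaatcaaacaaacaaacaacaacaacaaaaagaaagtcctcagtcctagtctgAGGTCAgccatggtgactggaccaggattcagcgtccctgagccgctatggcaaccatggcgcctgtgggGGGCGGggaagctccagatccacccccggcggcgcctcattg
Plin2: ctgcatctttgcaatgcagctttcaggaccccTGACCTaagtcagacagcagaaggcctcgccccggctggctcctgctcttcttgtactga
Mgll: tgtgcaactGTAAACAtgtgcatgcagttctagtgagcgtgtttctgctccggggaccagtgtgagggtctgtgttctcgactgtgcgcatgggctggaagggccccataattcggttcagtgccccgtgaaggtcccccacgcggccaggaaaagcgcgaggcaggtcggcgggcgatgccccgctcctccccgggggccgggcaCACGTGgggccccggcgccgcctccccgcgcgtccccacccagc

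Among all 32851 promoter windows, cut to the same 250 bases, 14.02% held the nuclear receptor motif, 32.74% the GC box, 6.02% the E-box and 3.17% the forkhead motif. The numbers for the members were 3, 8, 1 and 1 of 13 windows. The direct repeat that PPARα binds with its partner RXR, which is AGGTCA written 2 times with 1 free base between and so overlaps the single motif, was in 0.0335% of all windows and in 0 of the 13. The cyclic AMP response element TGACGTCA was in 1.55% of all windows and in 0 of the 13. At such low shares 0 of 13 is the likely count for any genes. It therefore does not show that these genes lack such sites. These matches describe letters in short windows and are not measurements of binding. Cidec, Plin5 and Mgll each have 2 annotated start sites in this table, and values per gene cannot tell their transcripts apart.

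Sequencing depth, estimated from the steps between low values, was 21.8 to 30.8 M reads per library. Acss2 was at 74.0, 81.0 and 73.5 counts per 1000000 reads (CPM) in WT and at 1.37, 3.56 and 2.35 CPM in Acss2-KO, as the labels say. The leading principal component (71.5% of the variance) separated the genotypes, with WT between -45.6 and -38.0 and Acss2-KO replicates 1, 2 and 3 at 62.4, 16.9 and 44.0. Acss2-KO replicate 1 stood apart in another way. The summed level of 7 skeletal muscle markers was 429.5 CPM there, against 0 to 3.74 CPM in WT and 1.09 and 11.7 CPM in Acss2-KO replicates 2 and 3. Acta1, skeletal muscle actin, reached 199 CPM in that library and at most 3.63 CPM in any other. Plin4, Plin5 and Pnpla2 are also expressed in striated muscle, so their values are given below with and without that library. The sum of 7 hepatocyte markers, most of it Alb, was 80002 to 103455 CPM in WT and 93267 to 103361 CPM in Acss2-KO. By limma 2 of these 7 were lower and 0 higher (2 and 0 at an unadjusted p under 0.05), where all tested genes had 23.1% lower and 13.4% higher. Ttr fell from 4260.2 ± 45.03 to 1260.2 ± 391 CPM, and Ttc36 fell with a log2 fold change of -0.77.

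Of the 10 genes, 4 were higher in Acss2-KO (Cidec, Pnpla2, Plin5 and Plin2) and 2 were lower (Mgll and Cideb). Plin3, Plin4, G0s2 and Abhd5 did not pass the test. A gene passed at a limma adjusted p under 0.05 on log2(CPM + 1), adjusted over the 9355 genes whose mean reached 5 CPM, and each of the 10 did. Of all tested genes, 13.4% were higher and 23.1% lower, 36.5% in either direction, so calls were common throughout the table. The genotypes did not overlap for 8 of the 10 genes, against 52.9% of all tested genes. The median log2 fold change was 0.55 for the 10 genes and -0.12 for all tested genes. In absolute size the medians were 0.96 and 0.45. Relative to the median of -0.12 over all tested genes, the log2 fold changes were 2.72 for Cidec, 2.49 for Pnpla2, 1.91 for Plin5, 0.88 for Plin2, -0.79 for Cideb and -1.19 for Mgll. Of all calls 36.7% were higher. With the libraries rescaled by a trimmed mean the median of all genes was 0.02 and 52.1% of calls were higher, with 36.5% of genes called in either direction. The Cideb call was then lost (limma adjusted p = 0.051) and the other 5 stood.

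**Figure D1:**
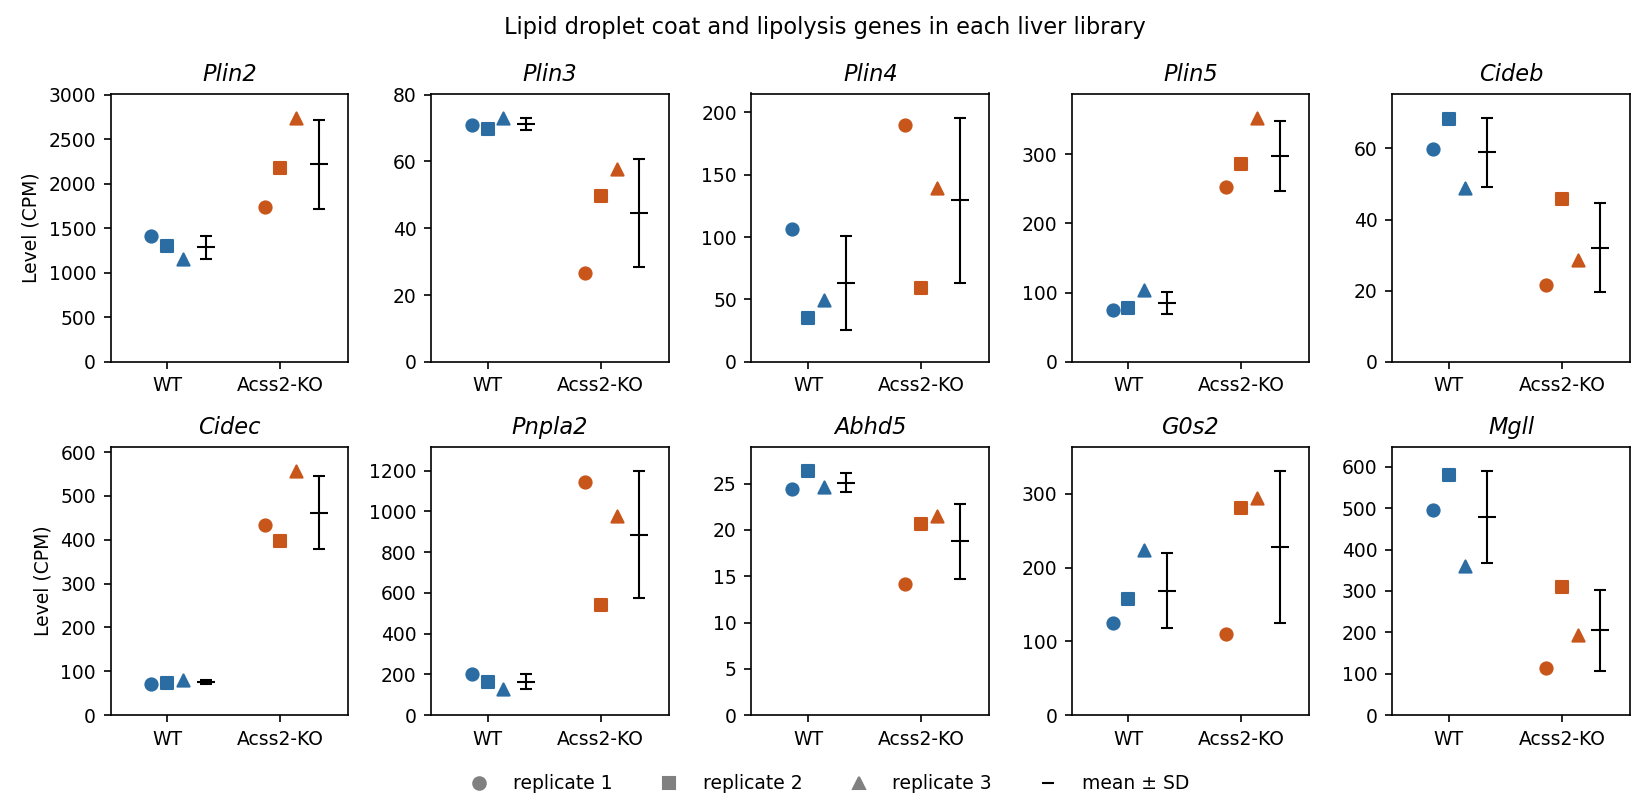
Level of each of the 10 genes in CPM (vertical axes, each starting at 0) in the 3 WT libraries (blue) and the 3 Acss2-KO libraries (orange), with the marker shape giving the replicate and black bars the mean ± SD. Cidec, Pnpla2, Plin5 and Plin2 are higher in each Acss2-KO library than in any WT library, and the groups overlap for Plin4 and G0s2.

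Cidec (ENSMUSG00000030278, chr6:113424634-113435760; locations here and below are those of the deposited table, GRCm38) encodes the droplet fusion protein FSP27, which is low in lean liver and abundant in fat tissue and fatty liver. Its level was 71.5, 72.5 and 79.9 CPM in WT and 434, 396 and 556 CPM in Acss2-KO. The WT libraries were close together and each Acss2-KO library was far above them. The means were 74.6 ± 4.58 and 462 ± 83.8 CPM (SD, n = 3 each), 6.07-fold higher (log2 fold change 2.60, SE 0.19, limma adjusted p = 0.000161). This was the largest change among the 10 genes. In the annotation Cidec overlaps a long noncoding RNA, Gm52871, by 1256 bp, and how reads there were counted is unknown. Bulk RNA cannot tell more RNA per cell from more cells of a type that carry it, here and for the genes that follow.

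Cideb (ENSMUSG00000022219, chr14:55754045-55758458), the CIDE gene of healthy hepatocytes, with a known part in lipoprotein lipidation, went the other way. Its values were 59.7, 68.1 and 48.8 CPM in WT and 21.7, 45.9 and 28.6 CPM in Acss2-KO. Acss2-KO replicate 2 lay just under the lowest WT library. The means were 58.9 ± 9.67 and 32.1 ± 12.5 CPM (SD, n = 3), a log2 fold change of -0.91 (SE 0.27, limma adjusted p = 0.0278). By limma, leaving out WT replicate 1, 2 or 3 ended the call (adjusted p 0.072, 0.084 and 0.054), and so did leaving out Acss2-KO replicate 1 (0.077) or 3 (0.092). Cideb overlaps Nop9 by 1583 bp in the annotation, and whether reads were counted by strand is unknown, so reads in that stretch cannot be assigned to either gene. Nop9 rose, from 17.8 ± 1.92 to 26.9 ± 4.33 CPM.

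Within a library, a single scaling factor cancels in the ratio of Cidec to Cideb, apart from the 1 CPM added to each value. Quantile scaling is not a single factor and can change the ratio. The log2 ratio was 0.26, 0.09 and 0.70 in WT and 4.26, 3.08 and 4.23 in Acss2-KO. In WT the 2 genes were at near equal CPM, and in each Acss2-KO library Cidec was well above Cideb. The difference was 3.51, or 11.4-fold (exact permutation p = 0.1, two-sided, 0.14 adjusted over 7 pairs). With 3 libraries against 3, 0.1 is the smallest p this test can give.

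Plin2 (ENSMUSG00000028494, chr4:86648386-86670060) encodes the main perilipin of hepatocytes, whose protein is stable when bound to droplets and degraded when free. It had the highest level per length of the 10 genes in both genotypes. In RefSeq a transcribed pseudogene, Gm12551, shares 5312 bp with the span of Plin2, taken with its introns. The RefSeq span starts 21476 bp before the deposited start of Plin2. Whether the overlap lies in sequence counted for Plin2 is therefore unknown. Plin2 was at 1409, 1305 and 1152 CPM in WT and at 1734, 2179.8 and 2740.1 CPM in Acss2-KO. The groups did not overlap, but the gap from the highest WT to the lowest Acss2-KO library was small beside the spread of Acss2-KO. The means were 1289 ± 129 and 2218 ± 504 CPM (SD, n = 3), 1.70-fold higher (log2 fold change 0.76, SE 0.23, limma adjusted p = 0.0297). By limma, Plin2 did not pass when WT replicate 1, 2 or 3 (adjusted p 0.064, 0.086 and 0.065) or Acss2-KO replicate 3 (0.14) was left out.

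Plin5 (ENSMUSG00000011305) encodes the perilipin of oxidative tissues, which binds ATGL and its activator and ties droplets to mitochondria. It was at 74.5, 77.2 and 103 CPM in WT and at 252, 286 and 352 CPM in Acss2-KO. The lowest Acss2-KO library was well above the highest WT library. The means were 85.0 ± 15.9 and 297 ± 50.7 CPM (SD, n = 3), 3.47-fold higher (log2 fold change 1.79, SE 0.21, limma adjusted p = 0.000832). Acss2-KO replicate 1, the library with muscle transcripts, had the lowest Plin5 value of its group. Without it the log2 fold change was 1.90 (limma adjusted p = 0.0012).

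The ratio of Plin5 to Plin2 rose with genotype. On the log2 scale it was -4.22, -4.06 and -3.47 in WT and -2.78, -2.93 and -2.96 in Acss2-KO. The 3 Acss2-KO libraries agree closely (SD 0.097) and lie above all WT libraries. The difference was 1.03 (exact permutation p = 0.1, 0.14 adjusted over 7 pairs).

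Plin4 (ENSMUSG00000002831), a perilipin with a long repeat region that coats small droplets, varied most of the 10 genes in WT. Its values were 106, 34.8 and 49.5 CPM in WT and 190.02, 58.9 and 139 CPM in Acss2-KO. The groups overlapped, since WT replicate 1 exceeded Acss2-KO replicate 2. The means were 63.5 ± 37.7 and 129 ± 66.1 CPM (SD, n = 3), with a log2 fold change of 1.02 (95% interval -0.29 to 2.32, limma adjusted p = 0.187). The highest Plin4 value was in Acss2-KO replicate 1. Without it the log2 fold change was 0.66 (limma adjusted p = 0.42), and without Acss2-KO replicate 2 it was 1.4995 (0.035). The part of the muscle transcripts in the Plin4 level was not tested.

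Plin3 (ENSMUSG00000024197), the broadly expressed perilipin that coats nascent droplets, was at 71.0, 69.6 and 73.0 CPM in WT and at 26.5, 49.5 and 57.7 CPM in Acss2-KO. Its WT libraries were the most alike of all 10 genes (coefficient of variation 2.44%), while the Acss2-KO libraries spread widely (36.2%) below them. The log2 fold change was -0.73 (SE 0.27, 95% interval -1.34 to -0.13), and the limma adjusted p of 0.0582 missed the threshold. It passed without Acss2-KO replicate 2 (limma adjusted p = 0.047) or replicate 3 (0.048).

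Plin4 and Plin5 are neighbours on chromosome 17 (56100591 to 56109803 and 56111601 to 56117596 in the deposited table, GRCm38), 1797 bp apart and on the same strand, and Plin3 (56278962 to 56290511) lies 161365 bp beyond. Among the 7 genes listed between Plin5 and Plin3, each of them tested, 1 was higher and 1 lower (all tested genes 13.4% and 23.1%). These were Sema6b (log2 fold change 0.68) and Tnfaip8l1 (-2.30), named after their values were seen. Lrg1, the gene next to Plin5, had a log2 fold change of 0.17 (limma adjusted p = 0.56). On the other side, Hdgfrp2 overlaps Plin4 by 19 bp in the annotation and was higher (0.62, limma adjusted p = 0.016). Farther out on that side Stap2 (-0.59) and Mpnd (-0.53) were lower, and Sh3gl1 and Ubxn6 did not pass. The genes on that side were named after their values were seen. The log2 ratio of Plin4 to Plin5 was 0.50, -1.13 and -1.05 in WT and -0.41, -2.26 and -1.33 in Acss2-KO. The groups overlapped, and the difference of -0.78 gave an exact permutation p of 0.4 (0.4 adjusted over 7 pairs).

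**Figure D2:**
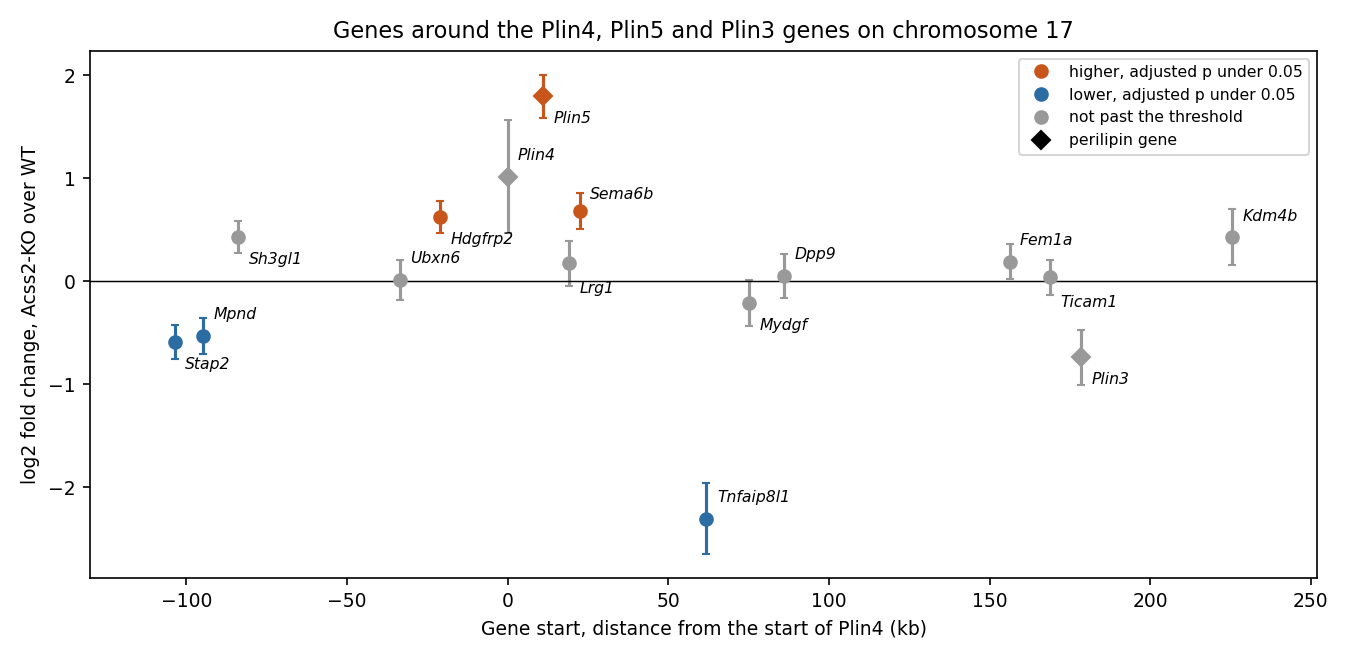
Log2 fold change, Acss2-KO over WT, with its SE (vertical axis) for tested genes on chromosome 17 against the distance of the gene start from that of Plin4 in kb (horizontal axis), with diamonds for perilipin genes and colour for the test result. Plin5 (1.79) stands above its neighbours, Plin4 (1.02) has a wide error bar, and Plin3 (-0.73) lies below 0.

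Pnpla2 (ENSMUSG00000025509, chr7:141455198-141460743) encodes ATGL, the lipase that starts triglyceride breakdown in hepatocytes and other cells. It was at 201, 163 and 131 CPM in WT and at 1144, 541 and 976 CPM in Acss2-KO. Acss2-KO replicate 2 was the lowest of its group and still far above the highest WT library. The means were 165 ± 35.1 and 887 ± 311 CPM (SD, n = 3), 5.18-fold higher (log2 fold change 2.37, SE 0.30, limma adjusted p = 0.00119). Without Acss2-KO replicate 1, where Pnpla2 was highest, the log2 fold change was 2.15 (limma adjusted p = 0.0024).

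Abhd5 (ENSMUSG00000032540, chr9:122351608-122381524) encodes CGI-58, the protein that activates ATGL. Its values were 24.4, 26.4 and 24.6 CPM in WT and 14.1, 20.7 and 21.6 CPM in Acss2-KO. Each Acss2-KO library was under each WT library, by a small margin for replicates 2 and 3. The log2 fold change was -0.42 (95% interval -0.85 to 0.0088, limma adjusted p = 0.111). The lowest Abhd5 value stands on about 404 reads. The coefficient of variation was 4.26% in WT, where counting error alone is of like size, and 21.6% in Acss2-KO. The log2 ratio of Abhd5 to Pnpla2 was -2.99, -2.59 and -2.36 in WT and -6.24, -4.64 and -5.44 in Acss2-KO. The groups were apart, and the ratio fell by 2.80 (6.94-fold, exact permutation p = 0.1, 0.14 adjusted over 7 pairs).

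G0s2 (ENSMUSG00000009633, chr1:193272161-193273217) encodes a small inhibitor that binds ATGL directly. Its values were 124.5, 158 and 224 CPM in WT and 109.9, 280.1 and 294 CPM in Acss2-KO. Acss2-KO replicate 1 was the lowest of the 6 libraries, while the other 2 of its group were the highest. The log2 fold change was 0.35 (95% interval -0.56 to 1.25, limma adjusted p = 0.518). Without Acss2-KO replicate 1 it was 0.80 (limma adjusted p = 0.055). Relative to Pnpla2, G0s2 was lower in each Acss2-KO library. The log2 ratio was -0.69, -0.05 and 0.78 in WT and -3.37, -0.95 and -1.73 in Acss2-KO, a difference of -2.03 (4.08-fold, exact permutation p = 0.1, 0.14 adjusted over 7 pairs). Without Acss2-KO replicate 1 the difference was -1.35.

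The ratio of Plin5 to Pnpla2, a coat protein and the lipase it binds, did not separate the genotypes. On the log2 scale it was -1.42, -1.07 and -0.34 in WT and -2.18, -0.92 and -1.47 in Acss2-KO. The difference was -0.58 with an exact permutation p of 0.4 (0.4 adjusted over 7 pairs), which does not show that the ratios were alike.

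Mgll (ENSMUSG00000033174, chr6:88724412-88828360) encodes monoglyceride lipase, the enzyme of the last step, which also breaks down the endocannabinoid 2-arachidonoylglycerol. It was at 495, 580.0 and 359.5 CPM in WT and at 113, 309 and 193 CPM in Acss2-KO. The groups did not overlap, and replicate 2 of Acss2-KO lay closest to WT. The means were 478 ± 111 and 205 ± 98.4 CPM (SD, n = 3), 2.48-fold lower (log2 fold change -1.31, SE 0.35, limma adjusted p = 0.0206). By limma, Mgll did not pass when WT replicate 1 or 2 (adjusted p 0.064 and 0.069) or Acss2-KO replicate 3 (0.064) was left out. A long noncoding RNA, Gm26588, overlaps Mgll over 18180 bp, and it also fell (8.67 ± 1.17 to 1.99 ± 0.688 CPM). Gm26588 reached the mean of 5 CPM needed for testing only through WT.

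Between the first and the last lipase of the pathway the order of levels turned over. The log2 ratio of Mgll to Pnpla2 was 1.30, 1.82 and 1.45 in WT and -3.33, -0.81 and -2.33 in Acss2-KO. Mgll was above Pnpla2 in each WT library and below it in each Acss2-KO library, in CPM. The difference of -3.68 (12.8-fold) was the largest of the 7 pairs and gave an exact permutation p of 0.1 (0.14 adjusted over 7 pairs).

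**Figure D3:**
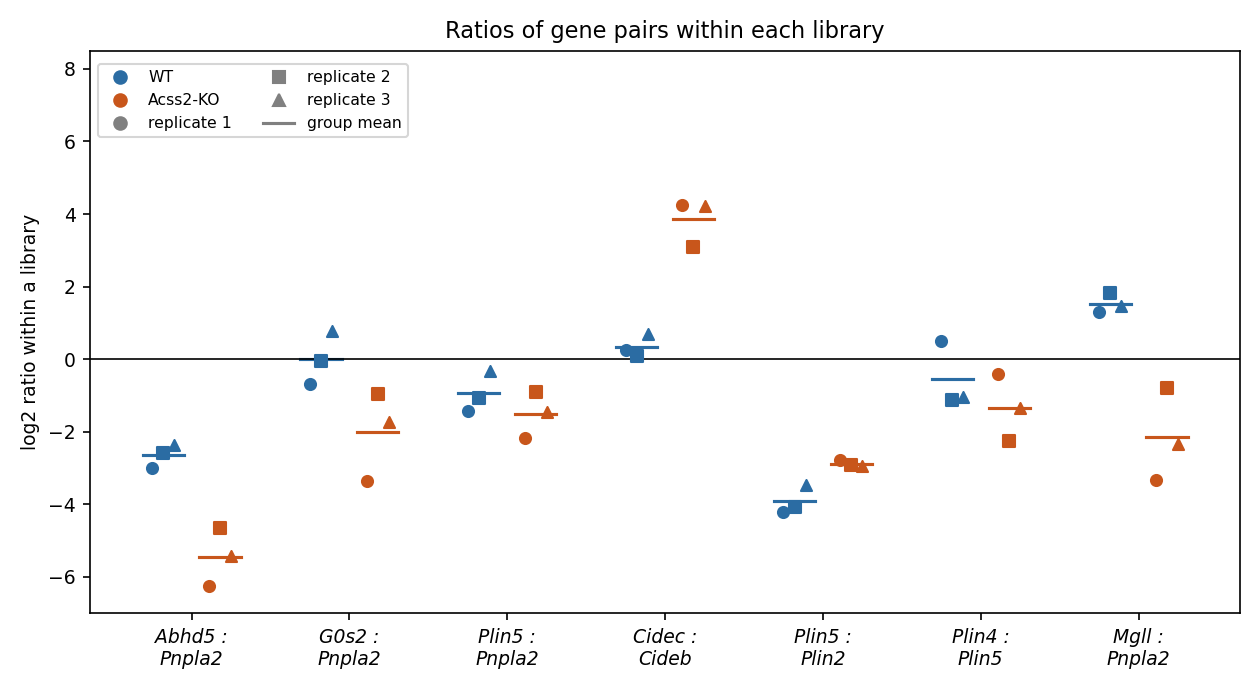
Log2 ratio of 7 gene pairs (vertical axis) within each WT library (blue) and each Acss2-KO library (orange), with the marker shape giving the replicate and lines the group means. The genotypes are apart for 5 pairs and overlap for Plin5 to Pnpla2 and for Plin4 to Plin5.

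Per kilobase of annotated exon, the order of the 10 genes in WT was led by Plin2 (367 ± 36.7 CPM per kb), G0s2 (200.5 ± 60.4) and Mgll (98.2 ± 22.8), with no overlap between these neighbours. Pnpla2 (54.6 ± 11.6), Plin5 (40.7 ± 7.604), Cidec (40.2 ± 2.47), Cideb (39.4 ± 6.47) and Plin3 (33.0 ± 0.804) followed, and each of these overlapped the next in that row. Plin4 (11.03 ± 6.55) and Abhd5 (7.71 ± 0.329) were last and overlapped. In Acss2-KO, Plin2 (632 ± 144 CPM per kb) stayed first, above Pnpla2 (294 ± 103), G0s2 (271 ± 122) and Cidec (249 ± 45.2), which overlapped in turn. Plin5 (142 ± 24.3) came next, with no overlap to either side. Mgll (42.1 ± 20.2), Plin4 (22.5 ± 11.5), Cideb (21.5 ± 8.34) and Plin3 (20.6 ± 7.48) followed, each overlapping the next in that row. Abhd5 (5.76 ± 1.25) was last.

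Acss2-KO replicate 2 was the library of its group closest to the WT mean for 5 of the 10 genes (Cidec, Pnpla2, Plin4, Cideb and Mgll) and the farthest for none. For Plin2, Plin5 and G0s2 the closest was replicate 1. Cidec, Plin5 and Pnpla2 passed the test in every alternative that was run, among them the 6 that each left out 1 library.

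**Figure D4:**
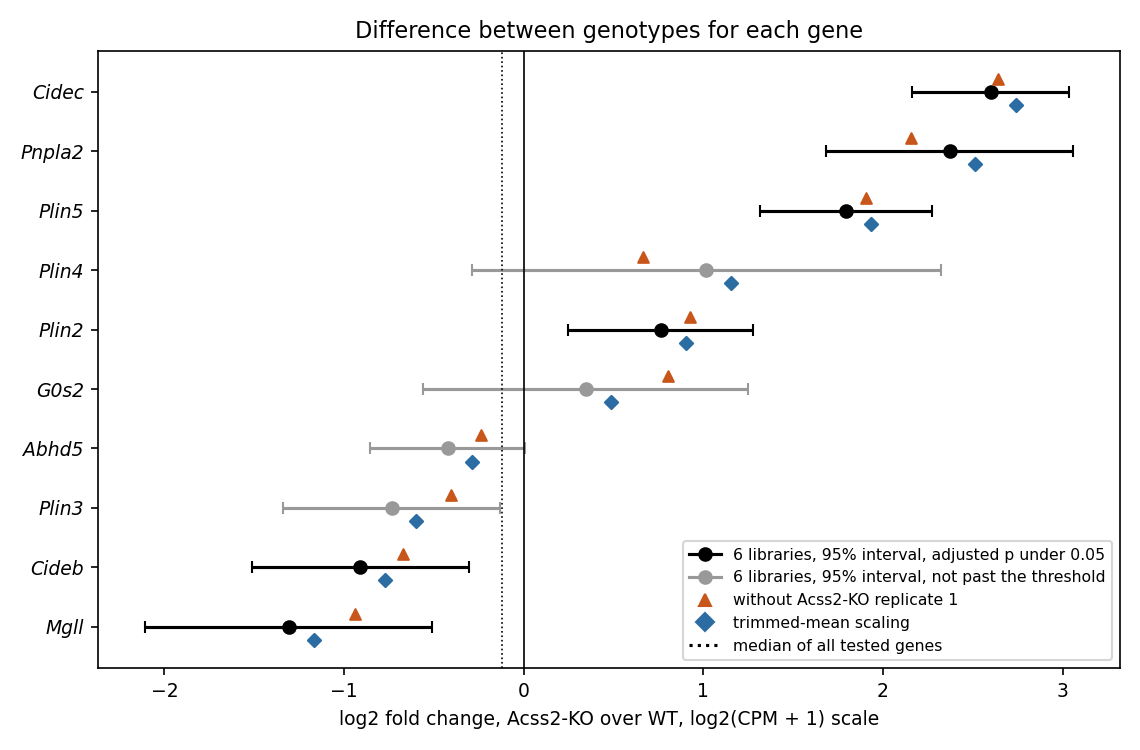
Log2 fold change, Acss2-KO over WT, on the log2(CPM + 1) scale (horizontal axis) for each of the 10 genes, with limma 95% intervals over 6 libraries, and values without Acss2-KO replicate 1 (triangles) and with trimmed-mean scaling (diamonds). Cidec (2.60), Pnpla2 (2.37) and Plin5 (1.79) lie far to the right in each version, and the interval of Plin4 spans 0.

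The authors' deposited table gives log2 fold changes of 2.77 for Cidec, 2.58 for Pnpla2, 1.95 for Plin5, 1.18 for Plin4, 0.93 for Plin2 and -1.06 for Mgll. Their adjusted p-values in the authors' deposited table are under 0.05 for these 6 genes, against 27.2% of all genes listed there. In the authors' deposited table Plin4 is thus among the calls (adjusted p = 0.0066) and Cideb is not (-0.71, adjusted p = 0.13), the reverse of the fit above.

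Other droplet proteins and lipases were read from a list of 43 tested genes, of which 2 were higher and 16 lower (all genes 13.4% and 23.1%), with a median log2 fold change of -0.50 against -0.12 for all tested genes. With trimmed-mean scaling the counts were 3 and 12, and without Acss2-KO replicate 1 they were 2 and 11. The numbers for all tested genes also moved, from 1252 higher and 2161 lower of 9355 with all libraries on CPM. They were 1780 and 1639 of 9355 with trimmed-mean scaling, and 801 and 1614 of 9351 without Acss2-KO replicate 1. With WT replicate 1 left out 8 genes were lower, with WT replicate 2 left out 10, and with Acss2-KO replicate 3 left out 8, and each time 1 was higher. Of all tested genes, 1302 of 9320, 1345 of 9282 and 1239 of 9399 were lower in these fits, in the same order. Those higher numbered 846, 780 and 519. Among 26 droplet proteins 2 were higher and 10 lower. Hilpda, a second inhibitor of ATGL, rose from 4.08 ± 1.17 to 26.3 ± 15.1 CPM (SD, n = 3, log2 fold change 2.32, limma adjusted p = 0.0026). Its Acss2-KO values were 17.3, 17.9 and 43.7 CPM, each above WT. With a WT mean under 5 CPM, Hilpda was tested only through its level in Acss2-KO. Hsd17b13, a droplet enzyme of hepatocytes chosen after its value was seen, was the other that rose (0.76). Fitm1, which acts in droplet formation, fell from 45.2 ± 7.14 to 4.84 ± 4.63 CPM (-3.26, and -3.88 without Acss2-KO replicate 2). With an Acss2-KO mean under 5 CPM, Fitm1 was tested only through its level in WT. Ldah, a droplet hydrolase, fell from 55.8 ± 7.48 to 17.8 ± 7.21 CPM (-1.67). Acsl3, an acyl-CoA synthetase of nascent droplets, fell with a log2 fold change of -1.55, Nsdhl, a sterol enzyme found on droplets, with -1.81, and Spg20 (spartin) with -0.90.

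Among 17 other lipases and their cofactors, 6 were lower and 0 higher by limma, where all tested genes had 23.1% and 13.4%. At an unadjusted p under 0.05 the counts were 8 and 0, and the shares of all tested genes 29.5% and 18.2%. Lipe, the hormone-sensitive lipase of the middle step, fell from 19.2 ± 3.80 to 10.9 ± 1.71 CPM (SD, n = 3, log2 fold change -0.75, limma adjusted p = 0.0197). Without WT replicate 1 or 2, or without Acss2-KO replicate 3, Lipe did not pass (limma adjusted p 0.076, 0.069 and 0.087). Aadac, a lipase of the endoplasmic reticulum, fell from 397 ± 122 to 118 ± 52.3 CPM (-1.80). Rfwd2, also named COP1, a ubiquitin ligase that acts on ATGL, fell (-0.80). Lamp2 (-0.77), Serpinf1 (-0.78) and Lipa, the lysosomal acid lipase (-1.01), passed with limma adjusted p between 0.034 and 0.046. None of these 3 passed under trimmed-mean scaling (limma adjusted p 0.073, 0.081 and 0.076) or without Acss2-KO replicate 1 (0.096, 0.125 and 0.11). They did not pass either when WT replicate 1 or 2, or Acss2-KO replicate 3, was left out (limma adjusted p 0.055 to 0.142), nor did Lamp2 and Lipa without WT replicate 3 (0.083 and 0.071).

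Of 24 tested regulators of the 10 genes, 3 were higher and 6 lower, near the shares of all tested genes (13.4% and 23.1%), with a median log2 fold change of -0.02. Ppara, the fasting receptor, fell from 227 ± 64.3 to 104 ± 0.418 CPM (SD, n = 3, log2 fold change -1.07, limma adjusted p = 0.0093), and Pparg, which drives Cidec in fatty liver, from 16.2 ± 2.69 to 6.93 ± 1.15 CPM (-1.12). Prkaa1, a catalytic subunit of AMP-activated kinase, fell from 10.3 ± 0.944 to 3.91 ± 0.995 CPM (-1.22). With an Acss2-KO mean under 5 CPM, Prkaa1 was tested only through its level in WT. Prkaa2, the other catalytic subunit, named after its value was seen, had higher levels, 68.8 ± 8.79 CPM in WT and 98.5 ± 15.7 CPM in Acss2-KO. Its log2 fold change of 0.51 did not pass (limma adjusted p = 0.061), though each Acss2-KO library was above each WT library. Nr1h3, the oxysterol receptor LXRα (-0.72), and Srebf1, a regulator of fatty acid synthesis (-0.72), also fell. Crtc2, a coactivator in the glucagon response, rose (0.88). The remaining called regulators, named after their values were seen, were Foxo1 (0.83) and Sirt1 (0.71), higher, and Prkacb (-0.65), lower. Their limma adjusted p-values were 0.045, 0.034 and 0.025. Srebf1 did not pass without WT replicate 1 or 2, or without Acss2-KO replicate 3 (limma adjusted p 0.069, 0.082 and 0.095), and Nr1h3 did not without the last of these (0.0501).

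Of 20 other fasting targets of PPARα, 5 were higher and 4 lower (13.4% and 23.1% of all tested genes), with a median of 0.05. Pdk4, an inhibitor of glucose oxidation, rose from 37.8 ± 22.5 to 1210.05 ± 708 CPM (4.87). Its log2 fold change was 5.55 without Acss2-KO replicate 2, and the call was lost with both WT replicate 2 and Acss2-KO replicate 1 left out (4.15, limma adjusted p = 0.13). Angptl4 (1.30), Cyp4a14 (0.80) and Cyp4a10 (0.77) were also higher, and Vnn1 (-1.85) and Acaa1b (-1.74) lower. Neither Cyp4a gene passed without WT replicate 2 (limma adjusted p 0.076 and 0.082), without Acss2-KO replicate 3 (0.052 and 0.059) or with quantile scaling (0.053 and 0.16). They are close paralogs, so their separate values are uncertain.

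**Figure D5:**
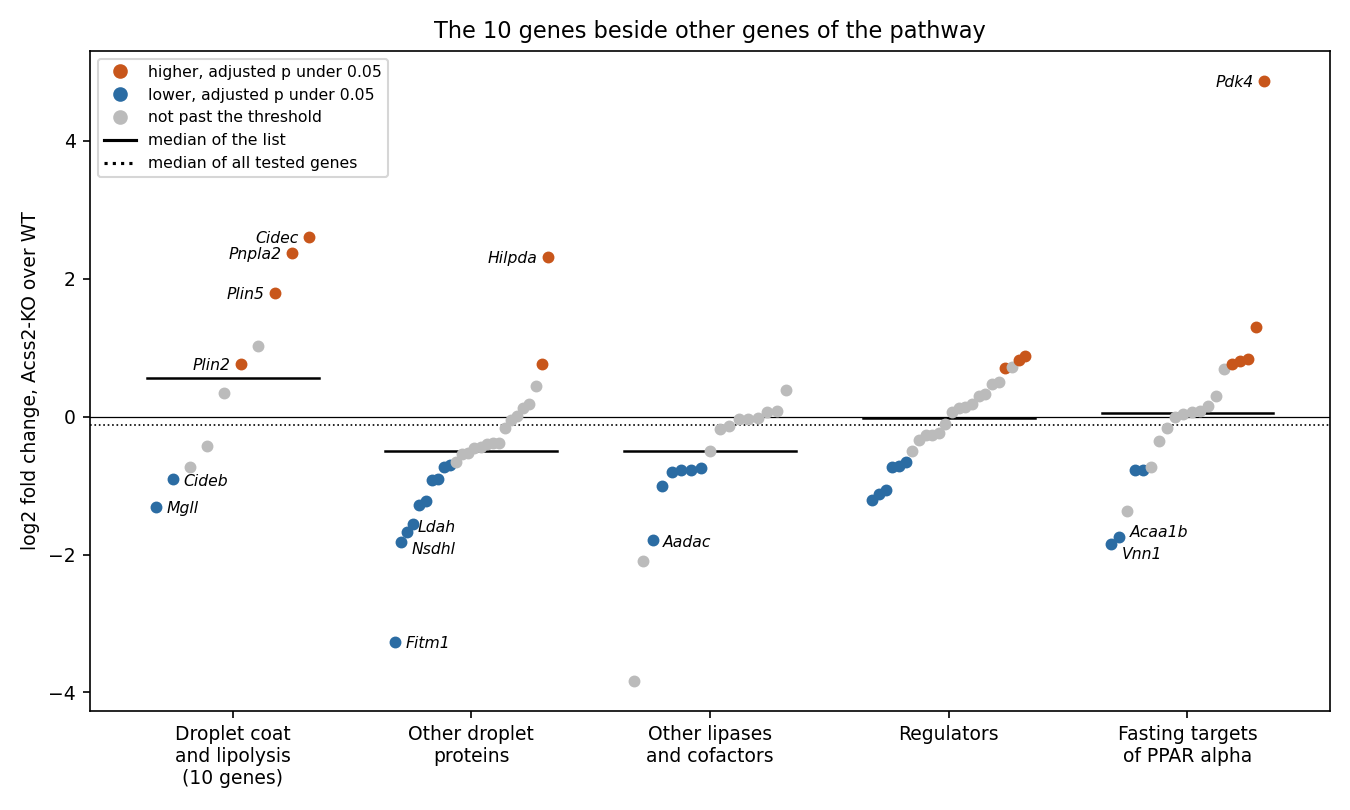
Log2 fold change, Acss2-KO over WT (vertical axis), of each tested gene in 5 lists (horizontal axis), with orange for higher and blue for lower at a limma adjusted p under 0.05, bars for list medians and a dotted line for the median of all tested genes. The 10 droplet coat and lipolysis genes spread from -1.31 (Mgll) to 2.60 (Cidec), while the 2 lists of other droplet proteins and lipases have medians near -0.50.

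Markers of other cell types that hold droplets were read beside these values. Of the adipocyte markers, Fabp4, which macrophages and endothelium also express, was at 7.84, 7.78 and 13.8 CPM in WT and at 47.5, 18.001 and 54.6 CPM in Acss2-KO (limma adjusted p = 0.0145). Lipe fell, Cidea was listed at 0 in each Acss2-KO library, and Cfd was at most 4.69 and Adrb3 at most 4.86 CPM in any library. The other 5 markers on the list (Adipoq, Lep, Plin1, Retn and Adig) were not found by symbol among the 12366 genes. The summed adipocyte list ranged from 36.7 to 39.0 CPM in WT and from 34.3 to 66.4 CPM in Acss2-KO. The sum of 12 macrophage markers was 264 to 771 CPM in WT and 145 to 232 CPM in Acss2-KO, with 4 of 11 tested markers lower and 0 higher by limma (5 and 0 at an unadjusted p under 0.05), against 23.1% and 13.4% of all tested genes. Stellate cell markers, 12 in all, summed to 474 to 647 CPM in WT and 406 to 598 CPM in Acss2-KO, and Dcn and Ecm1 made up much of that sum. The 598 CPM was in Acss2-KO replicate 1, the library with muscle transcripts. Des, a marker on this list that muscle also expresses, was at 72.0 CPM there and at most 8.17 CPM in any other library. By limma 3 of 11 tested stellate markers were lower and 0 higher (3 and 0 at an unadjusted p under 0.05), where all tested genes had 23.1% and 13.4%. The 3 were Lrat (-1.81), which makes the retinyl esters of stellate cell droplets, Col3a1 (-2.37) and Colec11 (-1.06). In Acss2-KO the means of Lrat (4.64 CPM) and Col3a1 (2.55 CPM) were under 5 CPM, so both were tested only through their WT levels. Col3a1 was at 14.4, 30.7 and 10.9 CPM in WT. The 9 endothelial markers summed to 327 to 521 CPM in WT and 364 to 500.1 CPM in Acss2-KO. By limma 1 of the 9 was higher and 2 were lower, where all tested genes had 13.4% and 23.1%. Lyve1 rose from 7.57 ± 3.44 to 50.1 ± 21.8 CPM (limma adjusted p = 0.0033), and Clec4g (-1.01) and Fcgr2b (-0.81) fell. The marker genes that passed were named after their values were seen. The part of these cells in the levels of the 10 genes was not tested.

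By profile over the 6 libraries, centred on each gene's mean, the tested genes nearest to Cidec were Ccdc120, D16Ertd472e and Asap2, at root mean square distances of 0.17, 0.23 and 0.24 on the log2 scale, against a median of 1.39 over all genes. The WT means of these 3 genes were 4.33, 4.92 and 4.89 CPM, and their Acss2-KO means 27.6, 25.9 and 27.8 CPM. They thus reached the mean of 5 CPM needed for testing only through Acss2-KO. The nearest to Mgll were Cat, the catalase gene, Slc6a13 and Lyst, at 0.08, 0.08 and 0.09 against a median of 0.79. With 2 groups the genotype difference makes up most of each profile, so this ranks genes by a like change and describes these libraries alone.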

How the data were processed

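The 10 genes and all gene lists were chosen with earlier results of these data known. Each library's values were deposited by the authors as log2 CPM with 2 decimals, with values under 1 CPM listed at 0. The authors' deposited log2 fold changes and p-values were read only as theirs. Bowtie 0.12.2 and mm8 appear, without a stated role, in the submitters' processing notes. Locations follow GRCm38 (median start difference 8 bp over 11625 genes), so the NCBIM37 genome gave exon lengths only. How reads were counted, by strand or at repeated sequence, was not given in the sources used here.

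Values were turned into CPM (listed 0 set to 1 CPM). Genes whose mean reached 5 CPM (109 to 154 reads) were tested on log2(CPM + 1), which understates the change of low genes, with limma 3.58.1 in R 4.3.3 (robust, mean-variance trend, statmod 1.5.0), two-sided, with Benjamini-Hochberg adjustment over all tested genes. Steps between low values gave each library's depth, but log2 values with 2 decimals do not resolve single reads at higher levels, so no count test was run. Ratios of 7 pairs used an exact permutation test (scipy 1.17.1). The procedure was tested on simulated data. Alternatives were other pseudocounts, scalings, filters, thresholds and variance models, a replicate block, and libraries left out. Named genes were the 10, Acss2, up to 6 called genes per list with the smallest p, and the 3 nearest profiles; others are said to be chosen after their values were seen.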

Additional observations from a re-analysis of the deposited data

How the results depend on the processing

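Cidec, Plin5 and Pnpla2 kept their call and G0s2 and Abhd5 their lack of one in all 20 alternatives; no gene of the 10 changed sign. Leaving out 1 library at a time gave 3 to 5 of the 10 genes higher and 0 to 3 lower, 519 to 1608 and 1239 to 2420 of all tested genes, and 1 to 3 and 8 to 20 of the other droplet and lipolysis genes. Lower calls among the 10 numbered 1 with trimmed-mean scaling, 0 at a threshold of 0.01 and 0 without both WT replicate 2 and Acss2-KO replicate 1. A threshold of 0.01 gave 505 higher and 991 lower among all genes and 1 and 8 among the other droplet and lipolysis genes. The 2 libraries left out together gave 715 and 1319, and 1 and 9. A minimum of 20 CPM gave 741 and 1112, and 1 higher droplet or lipolysis gene, with fewer genes tested (5527). Higher genes were 36.7% of all calls on CPM and 47.8% to 52.4% under the 4 other scalings. The pair ratios kept their direction throughout, over ranges of -3.19 to -2.39 (Abhd5 to Pnpla2), -2.56 to -1.35 (G0s2 to Pnpla2), -0.88 to -0.25 (Plin5 to Pnpla2), 3.31 to 3.90 (Cidec to Cideb), 0.88 to 1.26 (Plin5 to Plin2), -1.24 to -0.25 (Plin4 to Plin5) and -4.36 to -3.10 (Mgll to Pnpla2) with 1 library left out. Same-numbered libraries showed little common deviation from their group means (r = -0.10, -0.14 and 0.09 across genes for replicates 1, 2 and 3). Libraries with different numbers gave r from -0.15 to 0.18. With 3 libraries per group these values cannot exclude a pairing, and the labels give none. With the replicate number as a block, 5 of the 10 genes were higher and 3 lower, with Plin4 (limma adjusted p = 0.0055) and Plin3 (0.034) added, and 1260 and 2137 of all genes. For lost calls whose setting does not itself remove samples or genes, the cause was not tested.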

Other observations

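A pair of carboxylesterase genes, named after their values were seen, spread widely within Acss2-KO. Ces1d, which encodes a triglyceride hydrolase of the endoplasmic reticulum, was at 760.1, 617 and 556 CPM in WT and at 21.1, 488 and 309 CPM in Acss2-KO. Ces1f was at 600.5, 530.1 and 523 CPM in WT and at 5.78, 202 and 41.4 CPM in Acss2-KO. Each Acss2-KO library was below each WT library for both genes, and neither passed the test (limma adjusted p = 0.26 and 0.083). The order of the 3 Acss2-KO libraries, with replicate 1 lowest and replicate 2 highest, was the same for Ces1d, Ces1f, Mgll and Cideb. The genes that share it were picked after their values were seen. Plin3 and Abhd5, also below WT in each Acss2-KO library, had replicate 3 highest. Along the leading principal component of all genes, replicate 1 lies farthest from WT and replicate 2 nearest. That component was computed from the same libraries with these genes included, so the shared order is not independent of it. The Ces1 genes lie in a cluster of close relatives, and the counting of reads shared between them is unknown, so these values are uncertain.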
